A study of Rattus norvegicus with 20 samples.

Results

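Tricresyl phosphate (TCP) was given at 62.3 and 124.5 mg/kg, the lowest doses of a short rat gavage study, and the liver transcripts of these animals are described here against those of vehicle controls. The data were the 3 arrays of 62.3 mg/kg (0.169 mmol/kg) and the 3 arrays of 124.5 mg/kg (0.338 mmol/kg), chosen by the dose in their labels, together with the 5 arrays of rats that received corn oil alone. These were 11 of the 20 arrays of the series, and the other 9 came from rats given 248.6, 497.3 or 994.6 mg/kg. All animals were male Harlan Sprague-Dawley rats that received 4 daily gavages in corn oil, 1 array was made for each rat from the left liver lobe, and their age is not stated in the labels. The study tested males of a single stock, and the 5 controls were shared by every dose.

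TCP is an organophosphate ester found in hydraulic fluids, lubricants and plastics, and its neurotoxic isomers are known to act on esterases. The liver takes up such lipophilic compounds from the gut and clears them with enzymes of oxidation, hydrolysis and conjugation. Many of these enzymes are transcribed under the constitutive androstane receptor (CAR) and the pregnane X receptor (PXR), a pair of nuclear receptors that drug-like compounds activate in hepatocytes. Their known targets include P450 enzymes, epoxide hydrolase, carboxylesterases, glutathione transferases, glucuronosyltransferases and export pumps.

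Values were log2 expression values, so a difference of 1 is a doubling, and a value above 0 in any difference below means a higher level in the treated rats. The measured members of a fixed list of hepatocyte markers (9 of 10) averaged 14.40 to 14.42 on the 6 low-dose arrays and 14.39 to 14.44 on the control arrays, at the top of the scale. Correlations between the 11 arrays ran from 0.989 to 0.995 within groups and from 0.99 to 0.996 between groups. The first principal component of the 11 arrays held 24.2% of the variance. On it, replicate 2 of 124.5 mg/kg scored 22.7 and replicate 2 of 62.3 mg/kg 17.9, and the other 9 arrays lay between -13.0 and 6.13. On the second component (17.4%), replicate 3 of 124.5 mg/kg scored -21.9 and the other arrays lay between -9.26 and 9.96.

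Replicate 2 of 124.5 mg/kg also stood apart in a measure of RNA integrity, the log2 signal at the 3' end minus that at the 5' end of GAPDH, a control transcript on the array. This value was 0.91, 1.11 and 0.87 at 62.3 mg/kg and 0.76, 2.58 and 0.77 at 124.5 mg/kg, against 1.28, 1.55, 1.56, 1.35 and 1.13 in control. Of the low-dose arrays, 5 of 6 lay below every control and 1 lay far above them. The means were 1.17 ± 0.71 for the low doses (SD, n = 6) and 1.37 ± 0.18 for control (SD, n = 5; exact two-sided permutation p = 0.641, adjusted p for the pair of transcripts 0.641). For beta-actin the low-dose arrays had a mean of 2.13 ± 0.45 (SD, n = 6) and the control arrays of 2.50 ± 0.25 (SD, n = 5; exact two-sided permutation p = 0.147, adjusted 0.294), again with 5 of 6 low-dose arrays below every control. Without replicate 2 of 124.5 mg/kg, the differences between low doses and control were -0.49 for GAPDH and -0.54 for beta-actin, given with no test because that array was left out for its value in this same measure. The part of RNA integrity in the differences below was not tested beyond leaving out that array and adding the GAPDH measure to the fit.

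**Figure D1:**
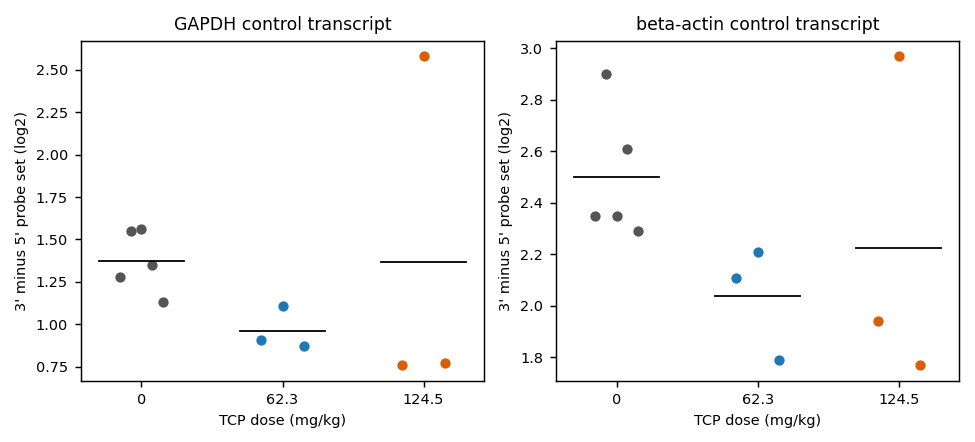
Log2 signal at the 3' end minus that at the 5' end of the control transcripts GAPDH, on the left, and beta-actin, on the right, by TCP dose in mg/kg. Points are arrays and lines are group means. Replicate 2 of 124.5 mg/kg lies at 2.58 and 2.97, and the other 5 low-dose arrays lie below all 5 control arrays in both panels.

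The pooled comparison asked which genes moved alike at both low doses. It set the mean of the group means at 62.3 and 124.5 mg/kg against control in a limma fit of 14217 genes to all 20 arrays. Genes with an adjusted p under 0.05 (Benjamini-Hochberg) are termed called. A gene counted as moving alike if it was called in the pooled comparison, moved in the same direction at both doses, had all 6 low-dose arrays beyond all 5 control arrays, and was not called between the doses. Lack of overlap implies the same direction, and no gene was called between the doses, so those conditions excluded nothing further. Full separation of the 6 from the 5 arrays held in 0.267% of genes as higher and 0.176% as lower. Exchanging labels at random gives a share of 0.00216 (1 of 462 arrangements) in each direction, so lack of overlap alone does not set a gene apart. A single gene, Ugt2b1, was called, 0.00703% of the genes tested, and it met the rule. None was called lower. With no difference in any gene, a share of about 0.05 would pass an unadjusted p under 0.05. In the pooled comparison 668 genes passed it (4.7%), 413 of them higher and 255 lower. That split depended on the scaling: it was 439 higher and 436 lower after the values were quantile normalized again, and 302 higher and 385 lower after each array was centred on its median. Against control alone, 62.3 mg/kg had 0 called genes (349 at an unadjusted p under 0.05, or 2.45%) and 124.5 mg/kg had 1, also 0.00703% (717 at an unadjusted p under 0.05, or 5.04%). For scale, 8 genes were called at 248.6 mg/kg (0.0563%), 104 at 497.3 mg/kg (0.732%) and 635 at 994.6 mg/kg (4.47%) in the same fit and against the same controls. The median standard error of the pooled change was 0.09, against a median absolute change of 0.064.

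Ugt2b1 encodes a UDP-glucuronosyltransferase, an enzyme that attaches glucuronic acid to drugs, steroids and phenols in the hepatocyte, and it is a known phenobarbital-inducible gene of rat liver. Its log2 level was 13.41, 13.26 and 13.36 at 62.3 mg/kg and 13.37, 12.90 and 13.19 at 124.5 mg/kg, against 12.20, 12.32, 12.25, 12.72 and 12.89 in control. All 6 low-dose arrays lay above all 5 control arrays, but the lowest of them, replicate 2 of 124.5 mg/kg, exceeded the highest control by no more than the rounding of these values. Ugt2b1 rose by 0.77 ± 0.11 (SE) on the log2 scale, or 1.71-fold (95% interval 0.53 to 1.01, adjusted p = 0.0269). The change was 0.87 ± 0.14 at 62.3 mg/kg (adjusted p = 0.0691) and 0.68 ± 0.14 at 124.5 mg/kg (adjusted p = 0.457), so neither dose passed alone. The difference between the doses, 124.5 minus 62.3 mg/kg, was -0.19 ± 0.15 (adjusted p = 1). With the GAPDH measure in the fit the pooled change was 0.72 (adjusted p = 0.0306), and without replicate 2 of 124.5 mg/kg it was 0.84 (adjusted p = 0.0129).

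The call of Ugt2b1 was close to the threshold. Leaving out control replicate 1, 2 or 3 gave pooled changes of 0.70, 0.73 and 0.72 with adjusted p = 0.151, 0.056 and 0.158, and the call ended each time. It also ended without replicate 1, 2 or 3 of 62.3 mg/kg (adjusted p = 0.0637, 0.0607 and 0.0549) and without replicate 1 or 3 of 124.5 mg/kg (adjusted p = 0.109 for each). In a fit of the 11 low-dose and control arrays alone it ended too (adjusted p = 0.109, or 0.114 with the 6 low-dose arrays as 1 group). It ended likewise after the values were quantile normalized again (0.74, adjusted p = 0.0738) and after each array was centred on its median (0.75, adjusted p = 0.103). Over the 23 other settings and left-out arrays the change ran from 0.70 to 0.99, and 11 of the 23 kept the call.

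To show the sequence context of the gene that passed and of the gene next to it among the higher ones, Ces2c, the 250 bases before each start site are given from RefSeq on the GRCr8 rat build, plus strand, 5′ to 3′. Capitals mark matches to AGTTCA on the minus strand, which read TGAACT here. AGTTCA and AGGTCA are hexamers of the kind nuclear receptors bind in pairs. The Ugt2b1 window is chr14:21378632-21378881, with its match starting 47 bases before the start site, and the Ces2c window is chr1:270376951-270377200, with its match starting 125 bases before it.
Ugt2b1: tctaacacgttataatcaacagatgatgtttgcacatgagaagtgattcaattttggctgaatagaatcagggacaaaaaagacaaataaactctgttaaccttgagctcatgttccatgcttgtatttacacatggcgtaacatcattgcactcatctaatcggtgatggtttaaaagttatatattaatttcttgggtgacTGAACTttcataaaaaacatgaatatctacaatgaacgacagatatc
Ces2c: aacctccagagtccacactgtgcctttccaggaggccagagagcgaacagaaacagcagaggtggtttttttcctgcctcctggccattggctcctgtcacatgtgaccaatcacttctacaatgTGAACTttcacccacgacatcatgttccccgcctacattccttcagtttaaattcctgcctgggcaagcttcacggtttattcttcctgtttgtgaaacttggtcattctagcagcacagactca
Neither window held AGGTCA on either strand. Of 33469 rat promoter windows of the same length, 12.2% held AGTTCA, 14.1% held AGGTCA and 24.3% held at least 1 of them on either strand, so a match is common and describes the letters only.

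Next to Ugt2b1 by p-value on the higher side stood Ces2c and Gsta3, which missed the threshold of 0.05 and would have joined Ugt2b1 in moving alike at a threshold of 0.1. Ces2c encodes a carboxylesterase of the endoplasmic reticulum that cleaves ester drugs and lipids. Its log2 level was 9.32, 9.93 and 9.86 at 62.3 mg/kg and 9.76, 9.76 and 9.89 at 124.5 mg/kg, against 8.98, 8.90, 8.76, 8.94 and 9.04 in control. The groups did not overlap, and replicate 1 of 62.3 mg/kg lay nearest to control. The pooled change was 0.83 ± 0.15, or 1.78-fold (95% interval 0.52 to 1.13, adjusted p = 0.0827), with 0.78 ± 0.18 at 62.3 mg/kg and 0.88 ± 0.18 at 124.5 mg/kg. Fitted on the 11 arrays of these groups alone, the change of Ces2c passed (adjusted p = 0.0334), whereas that of Ugt2b1 did not (adjusted p = 0.109). Ces2c was called in 3 of 23 other settings and left-out arrays, with adjusted p from 0.0155 to 0.736.

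Gsta3 encodes an alpha-class glutathione transferase, which conjugates electrophiles with glutathione. Its log2 level was 9.03, 9 and 8.69 at 62.3 mg/kg and 8.82, 8.83 and 9.12 at 124.5 mg/kg, against 7.97, 7.75, 8.16, 7.55 and 8.59 in control. The low-dose arrays again lay above every control, and control replicate 5 was the closest. The pooled change was 0.91 ± 0.17, or 1.88-fold (95% interval 0.56 to 1.26, adjusted p = 0.0971), and it was 0.90 ± 0.20 at 62.3 mg/kg and 0.92 ± 0.20 at 124.5 mg/kg. Without control replicate 5 it was 1.06 (adjusted p = 0.0113). Gsta3 was called in 2 of 23 other settings and left-out arrays, with adjusted p from 0.0113 to 0.46.

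Abcc3 encodes MRP3, a pump of the basolateral membrane that returns glucuronides and bile salts to the blood. It had log2 levels of 7.22, 7.63 and 7.75 at 62.3 mg/kg and 7.16, 7.34 and 8.20 at 124.5 mg/kg, against 6.36, 6.92, 6.61, 6.92 and 6.66 in control. The groups did not overlap, but the low-dose arrays were spread widely, with an SD of 0.39 (n = 6). The pooled change of 0.85 ± 0.20, or 1.80-fold, did not pass (adjusted p = 0.616). The plot of log2 level by array and dose shows these genes beside the higher doses.

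**Figure D2:**
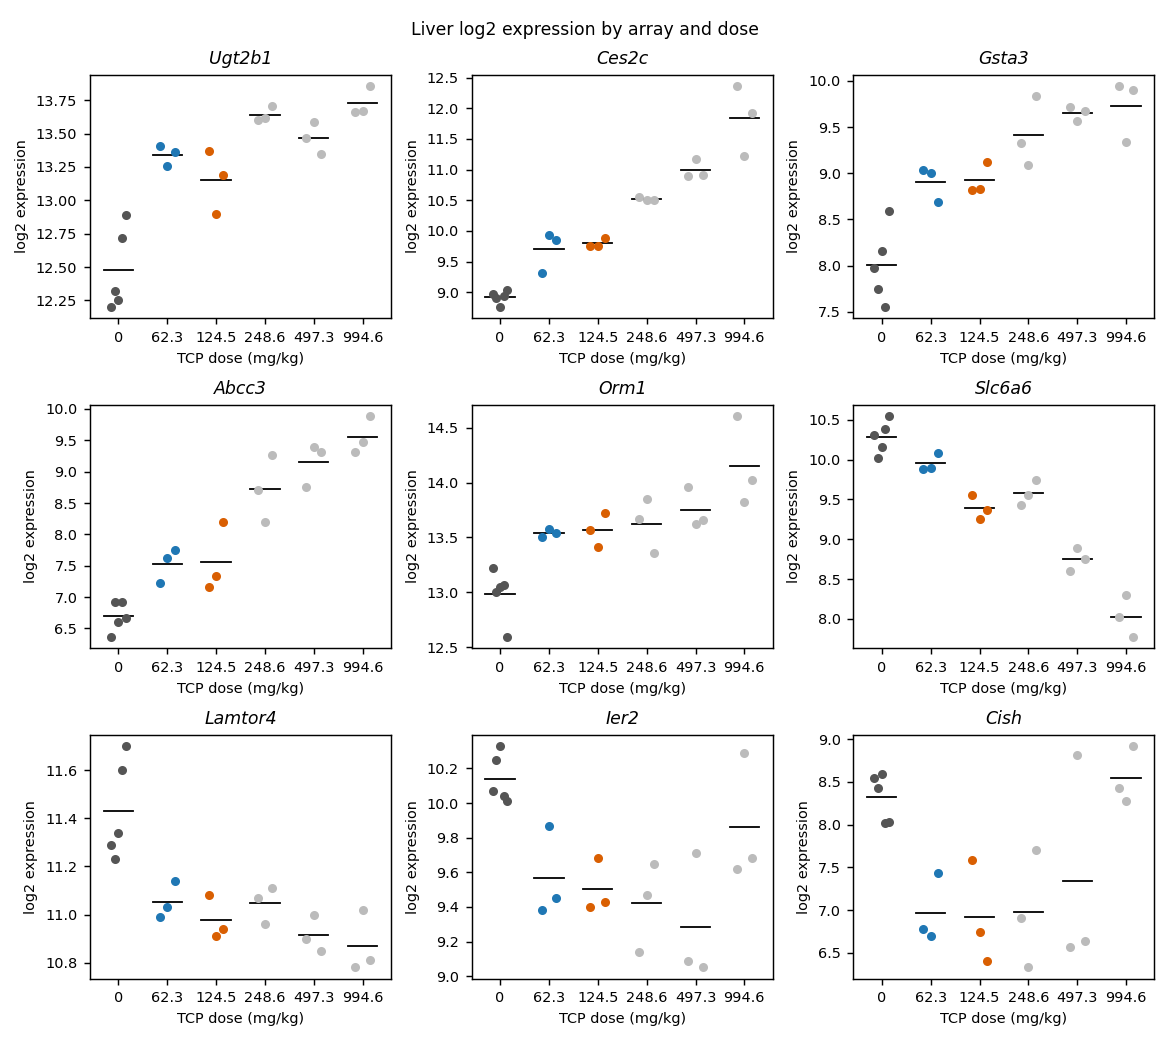
Log2 expression of 9 genes by array against TCP dose in mg/kg, with control at 0 and 5 control arrays. Points are arrays, coloured blue at 62.3 mg/kg and orange at 124.5 mg/kg, and lines are group means. Ugt2b1, Ces2c, Gsta3, Abcc3 and Orm1 lie above all controls on every low-dose array, Lamtor4, Ier2 and Cish lie below them, and 1 low-dose array of Slc6a6 lies within the control range.

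The wider set of CAR and PXR targets, which holds Ugt2b1, Ces2c and Abcc3, had 20 of 29 listed genes measured. On the pooled scale 18 were higher and 2 lower than in control, beside 7648 higher and 6569 lower of all 14217 genes. The list had a median change of 0.23, against a median of 0.008 over all genes tested. The 18 to 2 split was the same after either rescaling of the arrays, with medians of 0.207 and 0.21. Of the 20 genes, 1 was called, and 9 passed an unadjusted p under 0.05 as higher and 0 as lower, beside 2.9% of all genes higher and 1.79% lower. The 9 became 8 after quantile normalization and 6 after centring. The median was 0.139 at 62.3 mg/kg and 0.316 at 124.5 mg/kg, against 0.003 and 0.013 over all genes. Other lists had higher medians at 62.3 mg/kg: glucocorticoid targets and metallothioneins (0.243), Kupffer cell markers (0.179) and interferon genes (0.172). The glucocorticoid list also had a pooled median of 0.209 after quantile normalization, beside 0.207 for CAR and PXR targets. Without replicate 2 of 124.5 mg/kg the list of CAR and PXR targets still had 9 genes past the unadjusted threshold, with a median of 0.276. Averaged over the list, each array's level was 10.93 to 11.18 at the low doses and 10.70 to 10.85 in control, without overlap. That average includes Ugt2b1, Ces2c and Abcc3, whose levels did not overlap either, so it is not separate from them. No average was taken without these genes.

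Among the other members of this list, Ephx1, microsomal epoxide hydrolase, had a pooled change of 0.37 ± 0.09 (adjusted p = 0.616), and Aldh1a1, an aldehyde dehydrogenase, had 0.38 ± 0.11 (adjusted p = 0.969). Akr7a3, a reductase of toxic aldehydes, stood at 0.34 ± 0.13 and Cyp3a23-3a1, a classic PXR-responsive P450 of rat liver, at 0.33 ± 0.15. Cyp3a23-3a1 had changes of 0.14 at 62.3 mg/kg and 0.52 at 124.5 mg/kg, and Cyp3a18 had 0.14 and 0.36. Cyp2c6v1, a P450 of the 2C family, had 0.13 and 0.22 at the same doses. Cyp2a1 had 0.16 at both, and Cyp3a9 had -0.65 ± 0.50 at 62.3 mg/kg and 0.76 ± 0.50 at 124.5 mg/kg. None of these differences between doses was called. Por, the electron donor of the P450 enzymes, and Alas1, which starts heme synthesis, had pooled changes of 0.26 ± 0.20 and 0.21 ± 0.15. The export pumps Abcb1a and Abcc2 had -0.01 ± 0.18 and -0.01 ± 0.10. Cyp2b1 was not analysed here.

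The conjugating families were also read as lists. Pooled counts at an unadjusted p under 0.05 in these and all later lists stand beside 2.9% of all genes higher and 1.79% lower. Of 18 glucuronosyl- and sulfotransferases, 1 was called and 4 passed an unadjusted p under 0.05 as higher (Ugt2b1, Ugt2a1, Sult1b1 and Ugt2b35) and 0 as lower, with a list median of 0.071. Ugt2a1, a glucuronosyltransferase best known from nasal epithelium, had levels of 6.52, 6.50 and 6.52 at 62.3 mg/kg and 6.76, 6.20 and 6.70 at 124.5 mg/kg, against 5.91, 6.41, 5.78, 6.09 and 5.89 in control. Replicate 2 of 124.5 mg/kg lay inside the control range and the other 5 low-dose arrays above it. The gene was dim, with a control mean of 6.02 beside array medians of 6.31 to 6.41. Its pooled change was 0.52 ± 0.11 (adjusted p = 0.285). It was 0.61 without that array (adjusted p = 0.0452) and 0.62 without control replicate 2 (adjusted p = 0.0434), so single arrays decided that call. Of 19 glutathione transferases, 4 passed the unadjusted threshold as higher and 0 as lower, with a median of 0.062, and 2 passed after either rescaling of the arrays. As deposited, beside Gsta3 these were Gstt3 at 0.35 ± 0.15, Gstm1 at 0.19 ± 0.08 and Gsta1 at 0.14 ± 0.06.

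Targets of other xenobiotic sensors had smaller list medians. NRF2, the sensor of electrophiles, had 23 targets measured, of which 3 passed an unadjusted p under 0.05 as higher and 0 as lower, with a median of 0.1. All 3 of them, Abcc3, Akr7a3 and Ephx1, are also in the list of CAR and PXR targets. Nqo1, a quinone reductase used as an NRF2 marker, had a pooled change of 0.23 ± 0.18 with a 95% interval of -0.15 to 0.60. Of 8 targets of the aryl hydrocarbon receptor, 0 passed even the unadjusted threshold in limma and the median was -0.001. Cyp1a1, its best known target, had 0.03 ± 0.45, and its 95% interval of -0.91 to 0.98 is wide. The genes of the nuclear receptors themselves and of related factors (20 measured) had a median of -0.016. In that list 2 genes passed the unadjusted threshold as lower, Foxa2, a hepatocyte transcription factor, at -0.85 ± 0.28, and Thrb, a thyroid hormone receptor, at -0.29 ± 0.09. Foxa2 was low in replicate 2 of 62.3 mg/kg, at 7.91, and in replicate 3 of 124.5 mg/kg, at 7.73. It lay between 8.75 and 9.08 on the other low-dose arrays, against 8.91 to 9.66 in control.

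Organophosphates act on esterases, so the genes of these enzymes were listed as well. Of 24 measured, 2 passed an unadjusted p under 0.05 as higher and 0 as lower, Ces2c and Pnpla2, the adipose triglyceride lipase (0.28 ± 0.11 for Pnpla2). The median of the list was -0.002. Bche, butyrylcholinesterase, had 0.00 ± 0.10 with a 95% interval of -0.22 to 0.22. Pnpla6, the neuropathy target esterase, had -0.03 ± 0.06 with an interval of -0.17 to 0.10. These intervals bound the transcript change and say nothing of enzyme activity.

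Outside xenobiotic metabolism, Orm1 and App were among the 6 leading higher genes. Orm1 encodes orosomucoid, an acute phase plasma protein made in hepatocytes. Its log2 level was 13.50, 13.58 and 13.54 at 62.3 mg/kg and 13.57, 13.41 and 13.72 at 124.5 mg/kg, against 13.22, 13, 13.05, 13.07 and 12.59 in control, without overlap. The pooled change was 0.57 ± 0.13 (adjusted p = 0.616), with 0.56 at 62.3 mg/kg and 0.58 at 124.5 mg/kg. Of 28 acute phase genes, 2 passed an unadjusted p under 0.05 as higher, Orm1 and Crp (0.44 ± 0.15), and 0 as lower, with a list median of 0.05. App, the amyloid precursor protein, had a pooled change of 0.52 ± 0.12 (adjusted p = 0.616), and its 3 probe sets had changes of 0.52, 0.64 and 0.29.

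On the lower side, Slc6a6 came first by p-value, and it differed between the doses more than the other leading genes. Slc6a6 encodes the taurine transporter, which supplies hepatocytes with the amino acid used to conjugate bile acids. Its log2 level was 9.88, 9.90 and 10.08 at 62.3 mg/kg and 9.55, 9.26 and 9.37 at 124.5 mg/kg, against 10.31, 10.02, 10.16, 10.39 and 10.55 in control. All 3 arrays of 124.5 mg/kg lay below every control, while replicate 3 of 62.3 mg/kg lay within the control range. It fell by 0.89 ± 0.13 at 124.5 mg/kg (adjusted p = 0.0172), the single gene called at that dose. At 62.3 mg/kg the change was -0.33 ± 0.13 (adjusted p = 1), and pooled it was -0.61 ± 0.11 (adjusted p = 0.0827), or -0.68 without control replicate 2 (adjusted p = 0.0434). The difference between the doses was -0.56 ± 0.14 and did not pass (adjusted p = 1). The call at 124.5 mg/kg ended without control replicate 1 (adjusted p = 0.0685) or 4 (adjusted p = 0.0766) and without replicate 2 (change -0.82, adjusted p = 0.124) or 3 (adjusted p = 0.102) of that dose. It also ended with the mean of both probe sets of the gene (change -0.92, adjusted p = 0.622). The same held with the compared groups alone (adjusted p = 0.102), array weights (0.195) and the replicate block (0.349). Of 19 other settings and left-out arrays, 10 kept the call.

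The next genes on the lower side were Lamtor4, Ier2, Cish and Fer1l5. Lamtor4 encodes a subunit of Ragulator, the complex that holds mTORC1 at the lysosome. It had levels of 10.99, 11.03 and 11.14 at 62.3 mg/kg and 11.08, 10.91 and 10.94 at 124.5 mg/kg, against 11.29, 11.23, 11.34, 11.60 and 11.70 in control. All low-dose arrays lay below control, with a pooled change of -0.42 ± 0.08 (adjusted p = 0.211). Its changes were much alike from dose to dose, at -0.38, -0.46, -0.39, -0.52 and -0.56 in order of dose, all against the same 5 controls. Ier2, an immediate early gene, had levels of 9.38, 9.87 and 9.45 at 62.3 mg/kg and 9.40, 9.68 and 9.43 at 124.5 mg/kg, against 10.07, 10.25, 10.33, 10.04 and 10.01 in control. These did not overlap either, and the pooled change was -0.60 ± 0.14 (adjusted p = 0.616). Of 25 immediate early genes, 3 passed an unadjusted p under 0.05 as lower (Ier2, Dusp6 at -0.67 ± 0.18 and Klf10 at -0.55 ± 0.22) and 0 as higher, with a list median of -0.057. Of all genes, 1.79% passed as lower. Fer1l5, a member of the ferlin family, had -0.77 ± 0.19 (adjusted p = 0.874).

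Cish had the largest absolute difference among the 63 genes whose 6 low-dose arrays lay beyond all 5 control arrays. It encodes a feedback inhibitor of the growth hormone receptor pathway and is itself a target of STAT5, the transcription factor that growth hormone pulses activate in male rat liver. Its log2 level was 6.78, 6.70 and 7.43 at 62.3 mg/kg and 7.59, 6.75 and 6.41 at 124.5 mg/kg, against 8.54, 8.43, 8.59, 8.02 and 8.03 in control. No low-dose array reached the control range. The pooled change was -1.38 ± 0.34, or a ratio of 0.384, and did not pass (95% interval -2.09 to -0.67, adjusted p = 0.747), with an SD of 0.46 over the 6 low-dose arrays. It passed in 1 of 23 other settings and left-out arrays, the fit of the low-dose arrays as 1 group of 6 with the control arrays only (adjusted p = 0.0429), in which Ugt2b1 did not pass (adjusted p = 0.114). The change was -1.34 at 248.6 mg/kg, -0.98 at 497.3 mg/kg and 0.22 at 994.6 mg/kg, so it did not follow the dose. A dimmer probe set of Cish had a pooled change of -0.68 ± 0.28.

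The Cish window before the start site, chr8:116850719-116850968 on GRCr8, plus strand, is given because the gene is a textbook STAT5 target. Capitals mark matches to TTCNNNGAA, the core of STAT sites, which reads the same on both strands.
Cish: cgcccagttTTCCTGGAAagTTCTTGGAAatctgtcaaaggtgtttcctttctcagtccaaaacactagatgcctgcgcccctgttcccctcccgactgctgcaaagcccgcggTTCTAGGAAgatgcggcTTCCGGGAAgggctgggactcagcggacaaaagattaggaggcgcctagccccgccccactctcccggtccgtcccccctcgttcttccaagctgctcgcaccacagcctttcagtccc
The window held 4 matches, starting 241, 230, 136 and 119 bases before the start site, while 7.67% of the 33469 promoter windows held at least 1. The match describes the letters and was not linked to the values.

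Other genes tied to growth hormone had small or uneven differences. Of 17 listed male-specific and growth hormone genes, 3 passed an unadjusted p under 0.05 as lower and 0 as higher, with a median of -0.031. These 3 were Cish itself, Igf1 and Obp3. Igf1, the growth factor that growth hormone induces in liver, had 14.06, 13.86 and 14.04 at 62.3 mg/kg and 14.03, 13.99 and 14.07 at 124.5 mg/kg, against 14.18, 14.11, 14.16, 14.20 and 14.13 in control. The groups did not overlap, yet the change was small, at -0.15 ± 0.06 (adjusted p = 0.969). Obp3, a lipocalin, had a change of -1.23 ± 0.34 at 62.3 mg/kg and of -0.15 ± 0.34 at 124.5 mg/kg, and the difference between the doses was not called. Bcl6, a repressor at STAT5 sites, varied strongly between rats, with 8.38, 10.52 and 6.76 at 62.3 mg/kg and 6.87, 11 and 10.32 at 124.5 mg/kg, against 6.86 to 7.85 in control. Of the low-dose arrays, 4 of 6 lay above all controls, and the pooled change of 1.58 ± 0.78 did not pass (adjusted p = 0.969). The male-specific P450 genes Cyp2c11, Cyp2c13, Cyp2a2 and Cyp3a2 had pooled changes between -0.07 and 0.05.

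**Figure D3:**
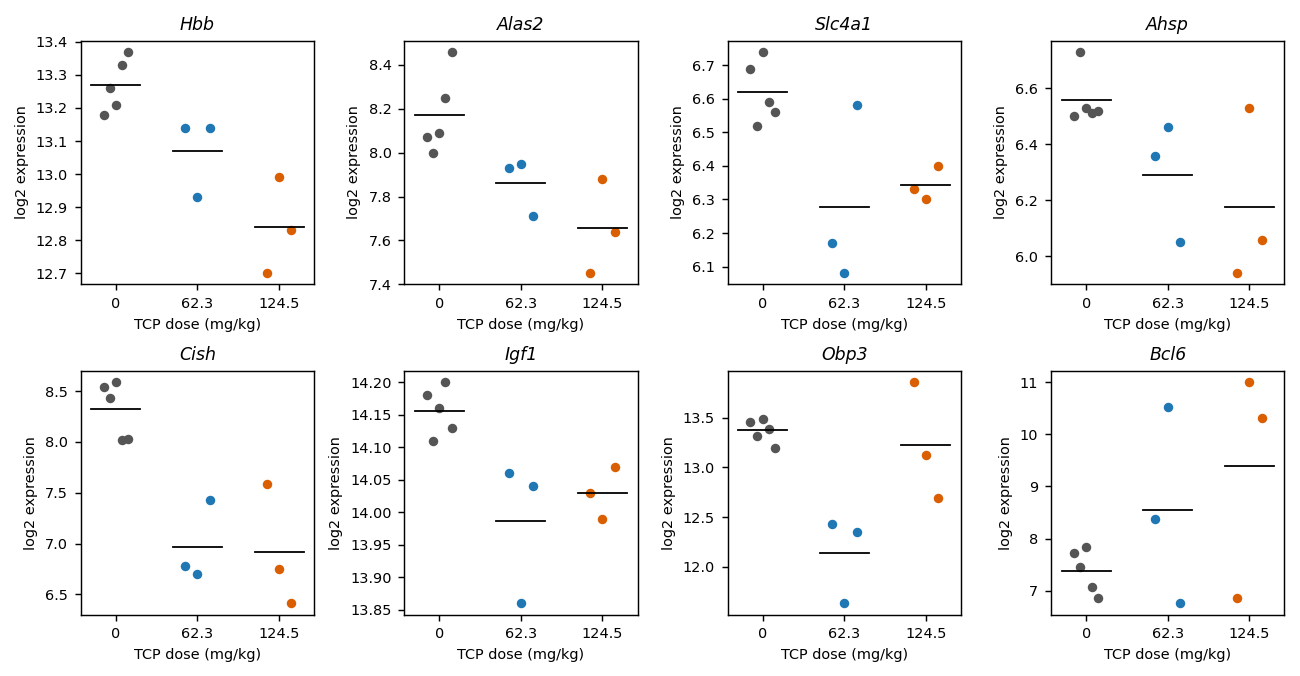
Log2 expression of 4 red cell genes (top) and 4 genes tied to growth hormone (bottom) by array against TCP dose in mg/kg, with control at 0. Points are arrays and lines are group means. Hbb, Alas2, Cish and Igf1 lie below all controls on every low-dose array, while Obp3 lies below control on all 3 arrays of 62.3 mg/kg and Bcl6 is spread from 6.76 to 11 over the low-dose arrays.

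Transcripts of red blood cells had lower values in the treated livers, without a call. Of all 14217 genes 6569 had negative pooled changes, and so had all 5 measured of the 8 listed markers. Their median was -0.326 (-0.266 at 62.3 mg/kg and -0.43 at 124.5 mg/kg) and -0.406 without replicate 2 of 124.5 mg/kg. None was called, and 3 passed an unadjusted p under 0.05: Slc4a1, the anion exchanger of red cells, at -0.31 ± 0.08, Ahsp, the chaperone of alpha globin, at -0.33 ± 0.10, and Alas2, the erythroid enzyme of heme synthesis, at -0.41 ± 0.19. Hbb, beta globin, had 13.14, 12.93 and 13.14 at 62.3 mg/kg and 12.70, 12.99 and 12.83 at 124.5 mg/kg, against 13.18, 13.26, 13.21, 13.33 and 13.37 in control. Its groups did not overlap, with a pooled change of -0.32 ± 0.20. Averaged over the 5 markers, the level was 9.07, 8.94 and 9.06 at 62.3 mg/kg and 8.76, 9.04 and 8.83 at 124.5 mg/kg, against 9.24 to 9.38 in control. In whole tissue, fewer red cells in the piece and less RNA per red cell cannot be told apart. The lists of Kupffer cell, endothelial, stellate, bile duct, lymphocyte and neutrophil markers had overlapping per-array means in low-dose and control livers, with median changes from -0.045 to 0.1.

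Bile acid genes were split. Of 28 measured, 4 passed an unadjusted p under 0.05 as higher and 1 as lower, with a median of -0.010. Cyp7a1, which sets the rate of bile acid formation from cholesterol, had levels of 11.34, 10.48 and 10.57 at 62.3 mg/kg and 10.90, 11.97 and 11.02 at 124.5 mg/kg, against 10.61, 10.26, 9.70, 10.73 and 9.33 in control. The arrays of 124.5 mg/kg lay above every control and those of 62.3 mg/kg overlapped them, and the pooled change was 0.92 ± 0.26 (adjusted p = 0.969), with 0.67 ± 0.32 at 62.3 mg/kg and 1.17 ± 0.32 at 124.5 mg/kg. Cyp8b1, the sterol 12-alpha-hydroxylase, had 0.33 ± 0.14. Abcg5 and Abcg8, which form the canalicular sterol pump, had -0.54 ± 0.27 and -0.57 ± 0.19 and overlapped control.

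Lists of energy metabolism gave few genes past the unadjusted threshold, which 2.9% of all genes passed as higher and 1.79% as lower. Among 20 genes of glucose and glycogen metabolism, 2 were higher and 2 lower at that level, with a median of 0.021. Among the lower genes, Ppp1r3b, which targets a phosphatase to glycogen, had 11.67, 11.34 and 11.44 at 62.3 mg/kg and 11.30, 11.15 and 10.75 at 124.5 mg/kg, against 12.02, 11.92, 12.11, 11.70 and 11.79 in control. Its groups did not overlap, and its pooled change was -0.64 ± 0.16 (adjusted p = 0.874). Of 25 genes of fatty acid and triglyceride synthesis, 2 were lower and 0 higher: Scd, the stearoyl-CoA desaturase, at -1.03 ± 0.44, and Mlxipl, the glucose-sensing factor ChREBP, at -0.31 ± 0.11. PPAR-alpha targets and fatty acid oxidation genes (36 measured) had 4 higher and 1 lower (3 higher after quantile normalization and 2 after centring), with Cd36, a fatty acid transporter, at 0.56 ± 0.20. Of 21 cholesterol genes, 0 passed in limma at the unadjusted threshold. Of 17 glucocorticoid targets and metallothioneins, 3 were higher and 0 lower, with a median of 0.214. They were Tat, tyrosine aminotransferase, at 1.13 ± 0.37, Ddit4, an inhibitor of mTORC1, at 0.84 ± 0.31, and Pck1, of gluconeogenesis, at 0.37 ± 0.16. Tat was 11.69 in replicate 2 of 62.3 mg/kg and 12.07 in replicate 3 of 124.5 mg/kg. It lay between 9.63 and 10.08 in the other 4 low-dose rats, against 9.25 to 9.97 in control. Pck1 was also highest in these same rats, at 14.11 and 14.30, and Foxa2 was lowest in them. Ddit4 was highest elsewhere, at 8.66 in replicate 1 of 124.5 mg/kg. Why these rats stood apart was not tested.

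Proteasome subunits had small positive differences. Of 24 measured, 22 had positive pooled changes, beside 7648 of all 14217 genes, with a median of 0.099. After quantile normalization and after centring 21 were positive, with medians of 0.073 and 0.08. As deposited, 5 of the 24 passed an unadjusted p under 0.05 as higher, beside 2.9% of all genes. They were Psma2 at 0.29 ± 0.11, Psma1, Psmb3, Psma5 and Psmb2. As lower, 0 passed. Their per-array mean was 10.72 to 10.96 at the low doses and 10.72 to 10.81 in control, so the groups overlapped. The count was 0 at 62.3 mg/kg alone, beside 1.34% of all genes, and 7 at 124.5 mg/kg alone, beside 3.36%, a difference that was not tested. Interferon and antigen presentation genes (30 measured) had a median of 0.123 with 1 gene past the unadjusted threshold, and heat shock genes (20 measured) a median of 0.093 with 1. The unfolded protein response list, which includes the integrated stress response, had 2 higher and 1 lower of 27. For the 15 p53 targets 0 passed the unadjusted threshold, and Cdkn1a, the cell cycle inhibitor p21, had 0.01 ± 0.35. That threshold was passed by 1 of 19 clock genes, Bhlhe40, a repressor of clock output, at -0.61 ± 0.23, while Nr1d1, the repressor REV-ERB-alpha, had 0.43 ± 0.29. None of the members of these lists was called.

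**Figure D4:**
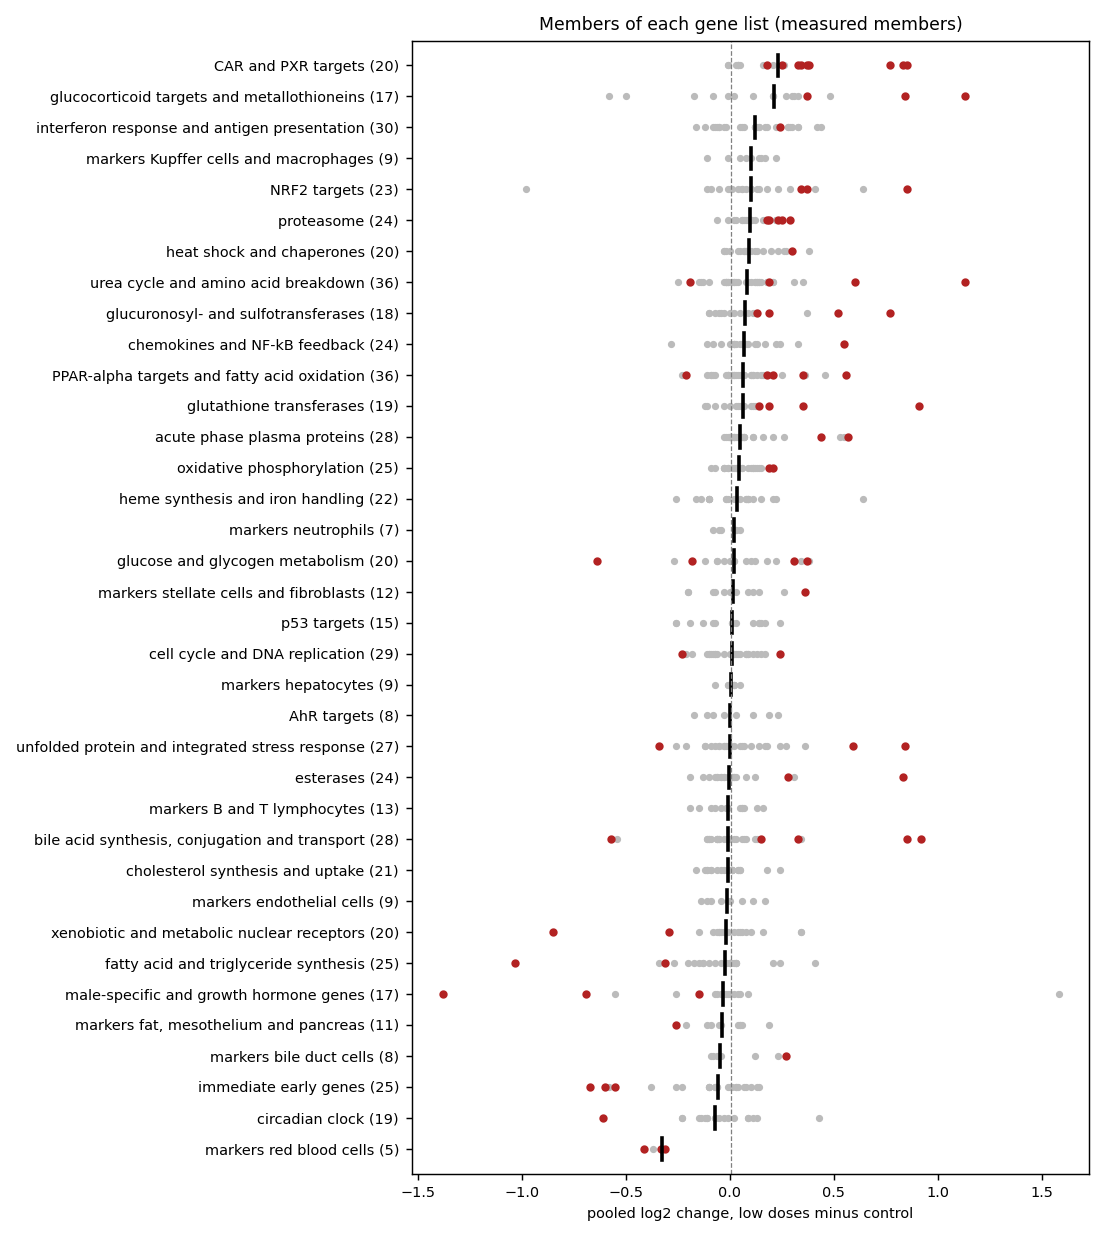
Pooled log2 change (low doses minus control, horizontal axis) of the measured members of 36 gene lists, 1 row per list with its number of measured members in brackets. Points are genes, red where the unadjusted p was under 0.05, and the black bars are list medians. CAR and PXR targets have the highest median, 0.23, followed by glucocorticoid targets and metallothioneins at 0.214. Red blood cell markers have the lowest, -0.326.

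The doses were then compared with each other. Between 124.5 and 62.3 mg/kg 0 genes were called in limma, and 299 passed an unadjusted p under 0.05 (2.1%). The median standard error of this difference was 0.121. All 6 low-dose arrays lay beyond all control arrays in 63 genes (0.443% of all, 38 higher and 25 lower), near the share that exchanged labels give. Of these 63, 0 had an unadjusted p under 0.05 between the doses, beside 2.1% of all genes. Their absolute pooled changes ran from 0.09 to 1.38 with a median of 0.23, and 10 reached 0.5 on the log2 scale. All 63 moved in the same direction at both doses, which the choice of non-overlapping genes fixes. Arrays of 62.3 mg/kg alone lay beyond all controls in 392 genes (2.76%) and those of 124.5 mg/kg in 498 (3.5%). With only 3 arrays, exchanged labels also separate the groups more often. Without replicate 2 of 124.5 mg/kg the count over both doses was 180 (1.27%).

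**Figure D5:**
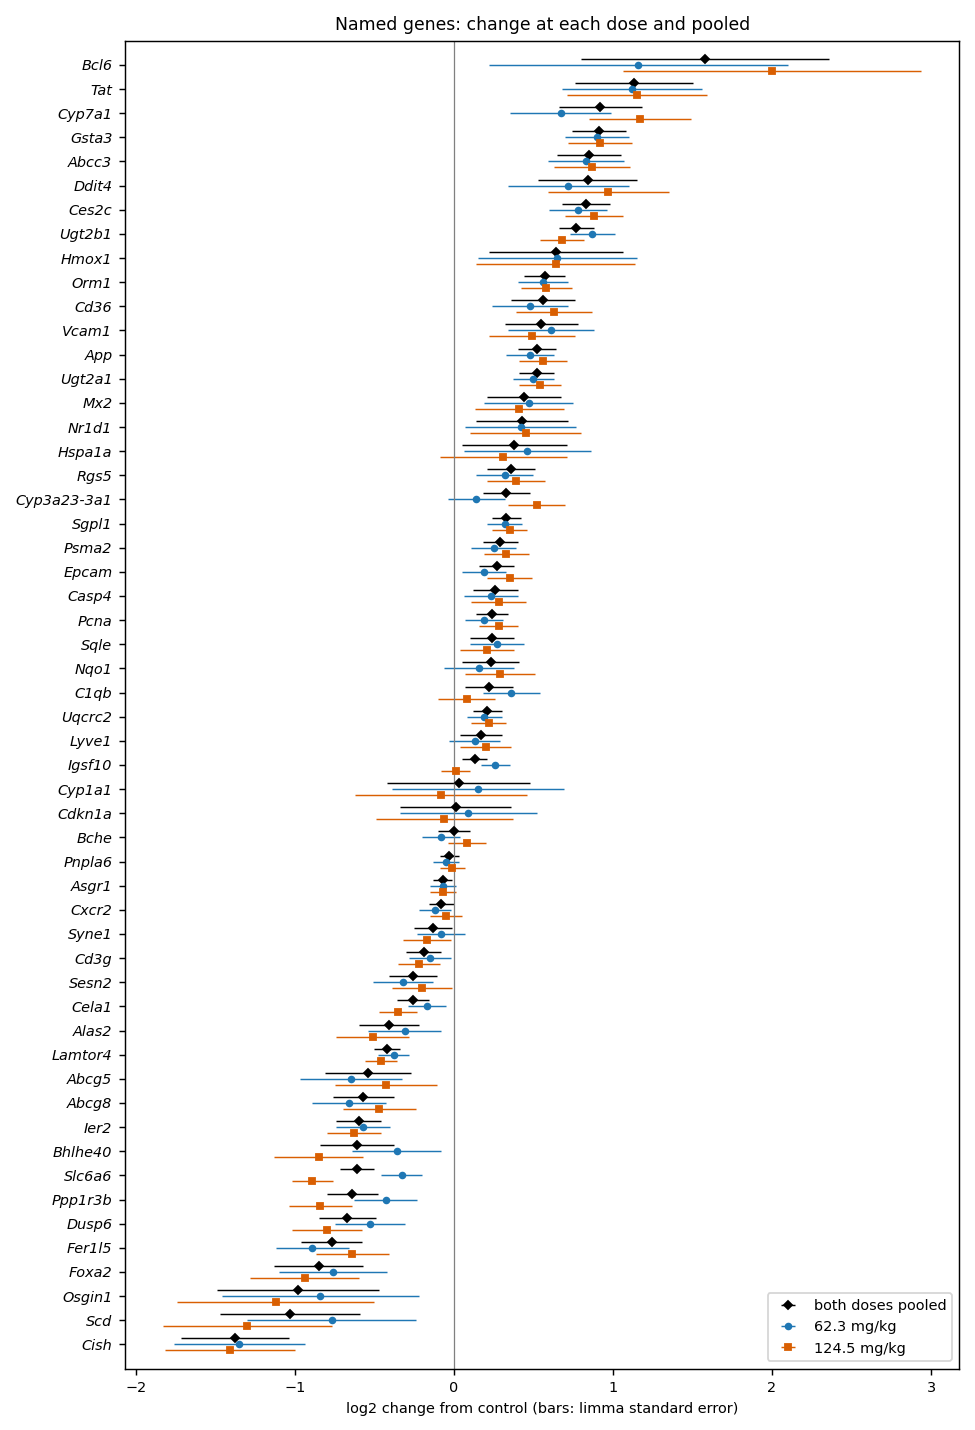
Log2 change from control of each named gene at 62.3 mg/kg (blue circles), at 124.5 mg/kg (orange squares) and pooled over both doses (black diamonds), with limma standard errors as bars. The changes at both doses lie close together for Ces2c, Gsta3, Abcc3 and Orm1, and those of Slc6a6 lie apart at -0.33 and -0.89.

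Finally, the 9 arrays of the 3 higher doses were set against the 6 low-dose arrays, a comparison into which the control means do not enter, although the control arrays add to the error of the fit. It called 13 genes (0.0914%), 8 higher (0.0563%) and 5 lower (0.0352%). Ces2c was higher by 1.37 ± 0.13 (adjusted p = 2.24e-05) and Abcc3 by 1.60 ± 0.18 (adjusted p = 0.000134) at the higher doses, and each kept its call under all 26 other settings and left-out arrays. Slc6a6 fell by 0.89 ± 0.09 (adjusted p = 7.43e-05), but with the mean of both its probe sets the change was -0.72 and did not pass (adjusted p = 0.059). Ugt2b1 and Gsta3 did not pass in this comparison, at 0.37 ± 0.10 (adjusted p = 0.208) and 0.68 ± 0.14 (adjusted p = 0.0853). In a fit of these 15 arrays alone 5 genes were called, with Ces2c, Abcc3 and Slc6a6 among them, while App, Sgpl1, Casp4, Abcg5, Abcg8, Syne1 and Igsf10 lost their calls (adjusted p = 0.0514 to 0.0963). Against the shared controls, Ugt2b1 had changes of 0.87, 0.68, 1.17, 0.99 and 1.25 in order of dose. Ces2c had 0.78, 0.88, 1.60, 2.07 and 2.92, and Abcc3 had 0.83, 0.87, 2.02, 2.46 and 2.86. Orm1, Lamtor4, Ier2, Cish and Ugt2a1 had differences of 0.29, -0.07, -0.02, 0.68 and 0.08 between the higher and the low doses, none of them called.

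The other 10 genes called between the higher and the low doses were App (0.61 ± 0.11), Casp4, an inflammatory caspase (0.68 ± 0.12), Sgpl1, which degrades sphingosine-1-phosphate (0.48 ± 0.08), Krt18, a keratin of hepatocytes, Rhbdf2 and Htatip2 on the higher side. On the lower side they were Abcg5 (-1.27 ± 0.23), Abcg8 (-0.98 ± 0.17), Syne1, a linker of the nuclear envelope (-0.62 ± 0.11), and Igsf10. Their adjusted p-values lay between 0.00967 and 0.043. With the GAPDH measure in the limma fit, Casp4, App, Abcg8, Syne1 and Igsf10 (adjusted p = 0.0594 each) and Abcg5 (adjusted p = 0.076) lost their calls. Ces2c, Abcc3, Slc6a6 and Sgpl1 kept theirs in that fit. The count of 13 ran from 3 to 22 when single arrays were left out: it was 3 without replicate 3 and 4 without replicate 1 of 124.5 mg/kg, and 8, 7 and 22 without replicate 1, 2 and 3 of 62.3 mg/kg. It was 6 and 8 without replicate 1 and 3 of 248.6 mg/kg, and 21 without replicate 1 of 497.3 mg/kg.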

How the data were processed

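Liver RNA of 20 rats was amplified with a biotin label from 100 ng of total RNA and read on 1-colour Affymetrix arrays, per the labels' protocols. The authors deposited a table of log2 values, which they obtained with RMA according to the submitters' processing notes (no version is named). RMA removes background, equalizes quantiles and combines the probes of a set, so changes are relative to the bulk of all genes. Values ran from 2.74 to 15.4 and array medians from 6.31 to 6.41. The number of arrays limits the precision.

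Of 31042 probe sets other than controls, 20826 carried 1 symbol in the platform annotation, 436 carried more and 9780 are unnamed here. For each gene the brightest probe set on average was used, giving 14217 genes, and low values were not filtered. Group means were estimated from the 20 arrays together by limma 3.58.1 in R 4.3.3 (14 residual and 4.77 prior degrees of freedom), and the code was tested on simulated data. Adjusted p-values are Benjamini-Hochberg over all genes of a comparison, and errors of changes are limma's standard errors unless named SD. The replicates are separate rats.

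Named genes were the called genes that moved alike and, with fewer than 5 called in a direction, the 5 with the smallest unadjusted p of that direction. Added were called genes of each dose (up to 5 per direction), up to 5 per direction between the higher and the low doses, up to 4 called members of each of 36 gene lists or, with none called, the member with the largest change, and 16 genes on which the series as a whole turned, and locus placeholders were left out. Other list members past an unadjusted p under 0.05 were named for describing their list. The groups, lists and named genes were chosen with earlier results of these data known. Replicate numbers, which the groups share, did not pair the samples: over 9 same-numbered pairs the correlation of deviations from the group means ran from -0.21 to 0.24. Alternatives covered the arrays in the fit, the gene filter, probe sets, scaling, eBayes options, array weights, a replicate block, the GAPDH measure as a covariate and left-out arrays. Added after seeing the data were the fit without control replicates 4 and 5, left-out arrays for the RNA measures, list counts without replicate 2 of 124.5 mg/kg, lists under other scalings, and a fit of all probe sets.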

Additional observations from a re-analysis of the deposited data

Results flagged for a closer look

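In 11 of 112 groups of values examined, 1 array lay far from the rest of its group by Dixon's test at the 95% level, where chance gives about 1 in 20 groups. Among them were the RNA integrity measures of replicate 2 of 124.5 mg/kg, at 2.58 for GAPDH (the other low-dose arrays 0.76 to 1.11) and 2.97 for beta-actin (1.77 to 2.21). Replicate 3 of 62.3 mg/kg lay apart for 4 genes, with 11.12 for App (others 11.57 to 11.81), 5.83 for Abcg8 (others 6.54 to 6.84), 9.14 for Pcna, the replication clamp (others 9.47 to 9.59), and 11.01 for Cela1, an elastase (others 10.43 to 10.63). Ces2c was low in replicate 1 of 62.3 mg/kg, at 9.32 (others 9.76 to 9.93).

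Among the control arrays, replicate 4 had 9.97 for Tat (others 9.25 to 9.38) and 10.68 for Cela1 (others 10.90 to 10.95). Control replicate 1 had 7.67 for Sgpl1 (others 7.28 to 7.38), and control replicate 2 had 9.46 for C1qb, a complement gene of Kupffer cells (others 10.03 to 10.21). The causes were not tested.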

How the results depend on the processing

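The pooled count of 1 called gene became 0 after quantile normalization and after centring each array on its median, and 2 without replicate 1 of 994.6 mg/kg, with the replicate block, and with the 6 low-dose arrays as 1 group. In that last fit the 2 genes were Ces2c (adjusted p = 0.0155) and Cish (0.0429), and Ugt2b1 was not called (0.114). The count of genes moving alike, also 1, became 0 under both scalings and at an adjusted p under 0.01, 2 without replicate 1 of 994.6 mg/kg and with the block, and 3 at an adjusted p under 0.1. Both counts ran from 0 to 2 over left-out arrays. At 62.3 mg/kg the count of 0 became 1 with genes below the median level left out, with the replicate block, and without the block but likewise without control replicates 4 and 5, and it ran from 0 to 1 over left-out arrays. At 124.5 mg/kg the count of 1 became 0 with the mean of all probe sets and with array weights, and 2 without replicate 1 of 994.6 mg/kg, with 0 to 2 over left-out arrays. Between the higher and the low doses 13 became 5 with the lowest-dose and higher groups alone and 23 with array weights, with 3 to 22 over left-out arrays. The low minus control difference ran from -0.49 to -0.13 for GAPDH and from -0.54 to -0.27 for beta-actin.

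Of 1506 alternative values of 65 named results, 1393 kept direction and side of the threshold, 92 lost a call, 9 gained one and 12 changed sign, in Cdkn1a and Cyp1a1 only, whose changes were near 0. Cdkn1a (0.01) had -0.01 under both scalings, -0.09 with array weights, -0.08 with the replicate block, -0.08 without it but without control replicates 4 and 5, and -0.27 to 0.27 over all settings. Cyp1a1 (0.03) had -0.04 with the GAPDH covariate and -0.06 to 0.09 over all settings. The cause was not tested. Fitting all 31042 probe sets called 0 in the pooled comparison, with Ugt2b1 at an adjusted p of 0.0546. With 3 rats per dose, the median standard error for 1 dose was 0.108, and even changes several times their standard error were not called. Ugt2b1 at 0.87 ± 0.14 for 62.3 mg/kg and Cish at -1.41 ± 0.41 for 124.5 mg/kg were such cases. An uncalled gene was therefore not shown to be unchanged.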

Other observations

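Some genes outside the lists also had all 6 low-dose arrays beyond all 5 control arrays, and they are named after their values were seen. Such lack of overlap was about as common as exchanged labels give. On the higher side were Slc1a2, a glutamate transporter, at 0.41 ± 0.10, Aass, of lysine breakdown, at 0.38 ± 0.15, and Ctsl, the lysosomal protease cathepsin L, at 0.21 ± 0.06. On the lower side were Inhba, the activin beta A subunit, at -0.64 ± 0.25, Vgll4, a repressor of TEAD factors, at -0.47 ± 0.19, Pctp, a phosphatidylcholine transfer protein, at -0.41 ± 0.15, and Map4k4, a kinase of stress signalling, at -0.40 ± 0.11. None was called.

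Of the 10216 probe sets without a single gene symbol, 0 were called in the limma fit of all probe sets. The probe set with the smallest p among them, 1371076_at, which the annotation gives several symbols, had 12.40, 12.83 and 12.98 at 62.3 mg/kg and 13.24, 12.80 and 13.16 at 124.5 mg/kg, against 12.18, 11.47, 10.59, 11.92 and 12.41 in control. Its pooled change was 1.19 ± 0.23 (adjusted p = 0.301), and 1 low-dose array lay within the control range. The unnamed probe set 1395845_at had 5.85 to 6.22 at the low doses and 6.32 to 7.16 in control, a change of -0.69 ± 0.15 (adjusted p = 0.644).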
